A study of Mus musculus with 22 samples.

Results

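The genes described here are 10 transcription factors of the myeloid lineage: Spi1, Cebpa, Cebpb, Cebpd, Cebpe, Gfi1, Irf8, Klf4, Klf6 and Id2. They were taken by gene symbol from deposited tables of read counts and FPKM, 10 of 47069 genes, by a rule that sets no threshold on a measured value. All 10 passed the filter on low counts that left 17659 genes for testing.

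Spi1 encodes PU.1, which opens myeloid enhancers and acts in a dose-dependent way in stem cells, granulocytes, macrophages and B cells. The C/EBP proteins follow it: C/EBPα commits progenitors to the granulocyte-monocyte fate, C/EBPε drives terminal neutrophil maturation and its late granule genes, and C/EBPβ and C/EBPδ act in emergency granulopoiesis and in macrophage activation. Gfi1, a repressor, favours the neutrophil side of the bipotent progenitor, whereas Irf8 and Klf4 favour the monocyte and dendritic side. Klf6 is a zinc finger factor of activated macrophages and neutrophils, and Id2 blocks E proteins in natural killer (NK) cells, innate lymphoid cells and dendritic cells.

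The mRNA came from whole bone marrow of 22 mice of strain C57BL/6. LSK cells, the Sca-1- and Kit-positive marrow fraction that holds blood stem cells, were taken from Cas9 knock-in donors, received pairs of single guide RNAs and were given after 24 h to hosts irradiated with 7 Gy. All groups therefore share Cas9, transduction and transplantation. The groups were sgEzh2 + sgRunx1 (4 mice), sgBcor + sgRunx1 (3), sgRunx1 + sgLuc (3), sgEzh2 + sgLuc (3), sgBcor + sgLuc (3) and sgLuc, the luciferase guide without a mouse target (6). Runx1 encodes a DNA-binding factor of blood cells. The products of Ezh2 and Bcor belong to the Polycomb system, as the PRC2 enzyme that methylates histone H3 and as a corepressor in a form of PRC1. Each mouse was sampled when it showed leukaemia, or else after 6 months, and the labels do not say which held for a given mouse, how much of the marrow was edited or how many host cells were left.

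Library totals were 30023722 to 57175449 counts. Ezh2 mRNA fell in both groups with its guide (edgeR FDR 0.00127 in sgEzh2 + sgRunx1 and 0.0212 in sgEzh2 + sgLuc, each against sgLuc), and Bcor mRNA rose in sgBcor + sgLuc (FDR 0.0139). In sgBcor + sgRunx1 Bcor was at 62.8, 78.6 and 159 CPM, against 50.8 to 68.1 CPM in sgLuc, and did not pass; sgEzh2 + sgLuc replicate 3, without a Bcor guide, had 155 CPM. Runx1 mRNA passed the test in no group against sgLuc, so mRNA level does not check the Runx1 label. The library of sgEzh2 + sgLuc replicate 3 stood apart: S100a8, a neutrophil gene, was at 63.2 CPM against 6838 to 25057 CPM in the other 21 libraries, Mpo of primary granules at 8.24 CPM against 1574 to 8362 CPM, and the T cell gene Cd3d at 484 CPM against 0.111 to 16.7 CPM. Results are therefore given with and without it. The Y-linked gene Ddx3y had 0 counts in all 16 edited libraries and 39.8 to 70.2 CPM in the 6 sgLuc libraries, so in every comparison with sgLuc, and in both interactions, the guides and this sex difference cannot be told apart. Comparisons among the edited groups do not carry it. CPM here are counts scaled to the library total, with the TMM factor that corrects for composition. Nothing in the labels says whether mice of a group shared a transduced culture, so p-values measure the spread between these samples only. In RNA of whole marrow, fewer cells of a type and less RNA per cell cannot be told apart.

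Klf6 was the member with the largest change among those that passed the test in all omissions of a library, so its promoter is shown, beside that of its family member Klf4, which passed in no comparison of all 22 libraries. The windows hold bases 250 to 21 before the RefSeq transcript start in GRCm38.p6, Klf6 at chr13:5861239-5861468 on the plus strand and Klf4 at chr4:55532496-55532725 on the minus strand, each read in the direction of the gene, 5′ to 3′. Capitals mark the letters CCAAT on the printed strand, or ATTGG where the match lies on the other strand.
Klf6: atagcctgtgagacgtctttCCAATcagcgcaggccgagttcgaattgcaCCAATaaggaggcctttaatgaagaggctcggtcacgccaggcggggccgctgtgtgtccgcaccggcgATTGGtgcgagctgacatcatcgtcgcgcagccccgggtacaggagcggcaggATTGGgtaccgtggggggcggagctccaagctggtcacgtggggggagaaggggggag
Klf4: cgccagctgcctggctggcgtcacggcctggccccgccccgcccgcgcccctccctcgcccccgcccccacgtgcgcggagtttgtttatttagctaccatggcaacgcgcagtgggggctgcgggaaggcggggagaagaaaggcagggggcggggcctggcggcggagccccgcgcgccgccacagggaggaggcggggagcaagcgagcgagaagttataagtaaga

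The Klf6 window held 4 matches, 2 on each strand, at 230 to 226, 200 to 196, 131 to 127 and 78 to 74 bases before the start. Of 32851 RefSeq windows of 230 bases, 32.2% held at least 1 match and 0.697% held 4 or more. The cut of 4 is the count of the Klf6 window itself, so this share describes that window and is not a test. The Klf4 window held none, while that of Id2 held 3 and 1 window of Irf8 held 1. The Id2 window overlaps exon sequence of Id2 itself. RefSeq windows were at hand for 7 of the 10 genes, in 9 windows; none of the 9 held TGTGGT on either strand (13.2% of all windows did), the RUNX core, and 1 of the 9, that of Gfi1, held TTGCNNAA on either strand, a C/EBP core (9.05% of all windows). That Gfi1 window overlaps exon sequence of Gfi1 and of A430072P03Rik. A match is a run of letters, not a shown binding site.

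In GRCm38, by GENCODE release M21, Klf6 spans chr13:5861482-5870394 on the plus strand, and Id2 chr12:25093799-25097140, Klf4 chr4:55527143-55532466 and Cebpe chr14:54710360-54712174 on the minus strand, with no other gene over them. Cebpb, at chr2:167688915-167690418, overlaps Tmem189 of the other strand, and Cebpd, at chr16:15887286-15891031, meets Spidr of the other strand. Gfi1, at chr5:107716657-107726036, and Cebpa, at chr7:35119293-35121928, also overlap a gene of the other strand, and Irf8 overlaps one of its own strand. Whether the counting used strand is not given in the sources used here, so reads of such pairs may not be told apart.

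Across the 5 comparisons with sgLuc, Klf6 rose in 4, Id2 fell in 2, Gfi1 rose in 1 and Cebpb fell in 1, while Spi1, Cebpa, Cebpd, Cebpe, Irf8 and Klf4 did not pass the test (FDR under 0.05 over all genes tested, edgeR quasi-likelihood). Counted by comparison, 2 of the 10 members passed in sgEzh2 + sgRunx1 (10.1% of all genes tested did), 2 in sgBcor + sgRunx1 (14.4%), 2 in sgRunx1 + sgLuc (8.12%), 1 in sgEzh2 + sgLuc (8.25%) and 1 in sgBcor + sgLuc (3.16%), each against sgLuc. The median log2 fold change of the 10 members was −0.18, −0.10, −0.29, −0.68 and −0.37 in these comparisons, against −0.04 to 0.06 over all genes tested. These comparisons share the sgLuc libraries. In sgEzh2 + sgLuc the 10 members ran from −1.46 to −0.07 with replicate 3 of that group included. When that library was left out they ran from −1.01 (Cebpb) to 0.18 (Klf6), with Spi1 at −0.37 and Irf8 at −0.20 as the middle values. Without sgEzh2 + sgLuc replicate 3, the members that passed were 3 in sgEzh2 + sgRunx1 (17.4% of all genes), 3 in sgBcor + sgRunx1 (22.7%), 2 in sgRunx1 + sgLuc (14.6%), 0 in sgEzh2 + sgLuc (1.05%) and 3 in sgBcor + sgLuc (8.17%).

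**Figure D1:**
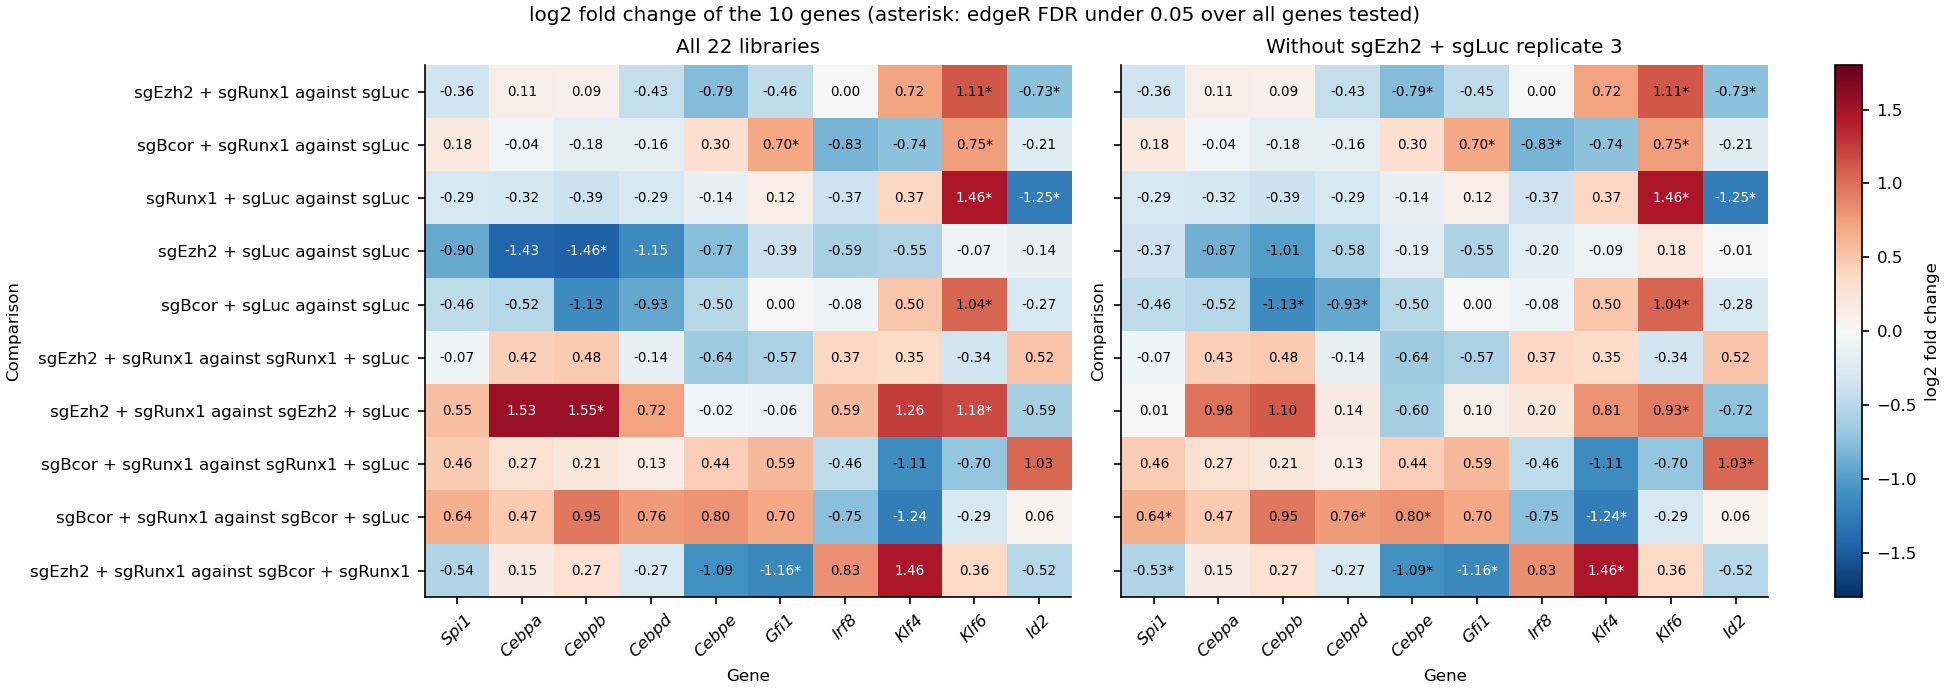
log2 fold changes of the 10 genes (columns) in 10 comparisons (lines), first group over second, in the edgeR fit of all 22 libraries (left) and without sgEzh2 + sgLuc replicate 3 (right). Red is higher and blue lower in the group named first, and an asterisk marks FDR under 0.05. Klf6 is marked in 4 of the 5 comparisons with sgLuc in both panels, and the marks for Spi1, Cebpd, Cebpe, Irf8 and Klf4 are in the right panel only.

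By group mean, Klf6 stood highest in marrow with the Runx1 guide alone and lowest in sgEzh2 + sgLuc and sgLuc. The libraries of sgRunx1 + sgLuc had 842, 877 and 727 CPM, against a lowest, median and highest of 193, 298 and 430 CPM in sgLuc. The groups did not overlap, and all 3 edited libraries were above every library of the other 5 groups. The log2 fold change was 1.46 (SE 0.24, edgeR FDR 0.00138), the mean 816 ± 78.7 CPM in sgRunx1 + sgLuc (n = 3) and 297 ± 94.8 CPM in sgLuc (SD, n = 6), and it passed without any 1 of the 22 libraries.

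With the Ezh2 guide added to the Runx1 guide, Klf6 was at 632, 713, 721 and 507 CPM in sgEzh2 + sgRunx1, again above every sgLuc library (log2 fold change 1.11, SE 0.23, edgeR FDR 0.00345, passing without any 1 library). In sgEzh2 + sgLuc it was at 306, 370 and 173 CPM, within the sgLuc range apart from replicate 3, the lowest library of all 22 (log2 fold change −0.07, SE 0.25, FDR 0.881, and 0.18 with FDR 0.806 without replicate 3). The difference between sgEzh2 + sgRunx1 and sgEzh2 + sgLuc was 1.18 (SE 0.28, edgeR FDR 0.00863), and 0.93 with FDR 0.0376 without sgEzh2 + sgLuc replicate 3. Against sgRunx1 + sgLuc, sgEzh2 + sgRunx1 was lower in all 4 libraries, with a log2 fold change of −0.34 (SE 0.27) that did not pass (FDR 0.651).

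In sgBcor + sgLuc, Klf6 was at 601, 705 and 532 CPM, above all sgLuc libraries, with a log2 fold change of 1.04 (SE 0.24, edgeR FDR 0.0254). The call rested on all 3 mice: FDR was 0.0782 without replicate 1, 0.0827 without replicate 2 and 0.0714 without replicate 3 of sgBcor + sgLuc, at fold changes of 0.94 to 1.14. In sgBcor + sgRunx1 it was at 578, 556 and 371 CPM, of which the third lay within the sgLuc range (log2 fold change 0.75, SE 0.25, edgeR FDR 0.0456). That call was at the threshold: 8 of 22 omissions kept it, and among the libraries compared it was lost without sgBcor + sgRunx1 replicates 1 and 2 (FDR 0.148 and 0.139) and without sgLuc replicates 1 to 4 (0.0531 to 0.083), while omitting libraries of other groups moved it only to 0.0541 at most.

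The mean in the double with Bcor was below the means of both of its singles, 502 ± 114 CPM in sgBcor + sgRunx1 against 816 ± 78.7 in sgRunx1 + sgLuc and 613 ± 87.2 in sgBcor + sgLuc (SD, n = 3 each). Klf6 in all 3 sgBcor + sgRunx1 libraries lay below all 3 sgRunx1 + sgLuc libraries, at a log2 fold change of −0.70 (SE 0.29) that did not pass (edgeR FDR 0.24). The interaction, the double minus the sum of both singles on the log2 scale, was −1.75 (SE 0.38, FDR 0.0231). Klf6 and Id2 were the 2 of 10 members to pass there (3.22% of all genes did; without sgEzh2 + sgLuc replicate 3, 5 members and 9.14% of all genes, the others being Spi1, Cebpd and Klf4). The Klf6 interaction was lost without sgRunx1 + sgLuc replicate 1 or 2 (FDR 0.0708 and 0.0641), sgBcor + sgLuc replicate 1 (0.0508) or sgBcor + sgRunx1 replicate 3 (0.0527). The interaction of the Ezh2 and Runx1 guides for Klf6 was −0.27 (SE 0.37, FDR 0.773), and none of the 10 members passed there (0.527% of all genes did). At an unadjusted edgeR p under 0.05 there were 2 members, beside 2736 of all 17659 genes. DESeq2 called 1 member, Cebpb, beside 607 genes. Without sgEzh2 + sgLuc replicate 3, again 0 members passed, beside 0.792% of all genes.

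**Figure D2:**
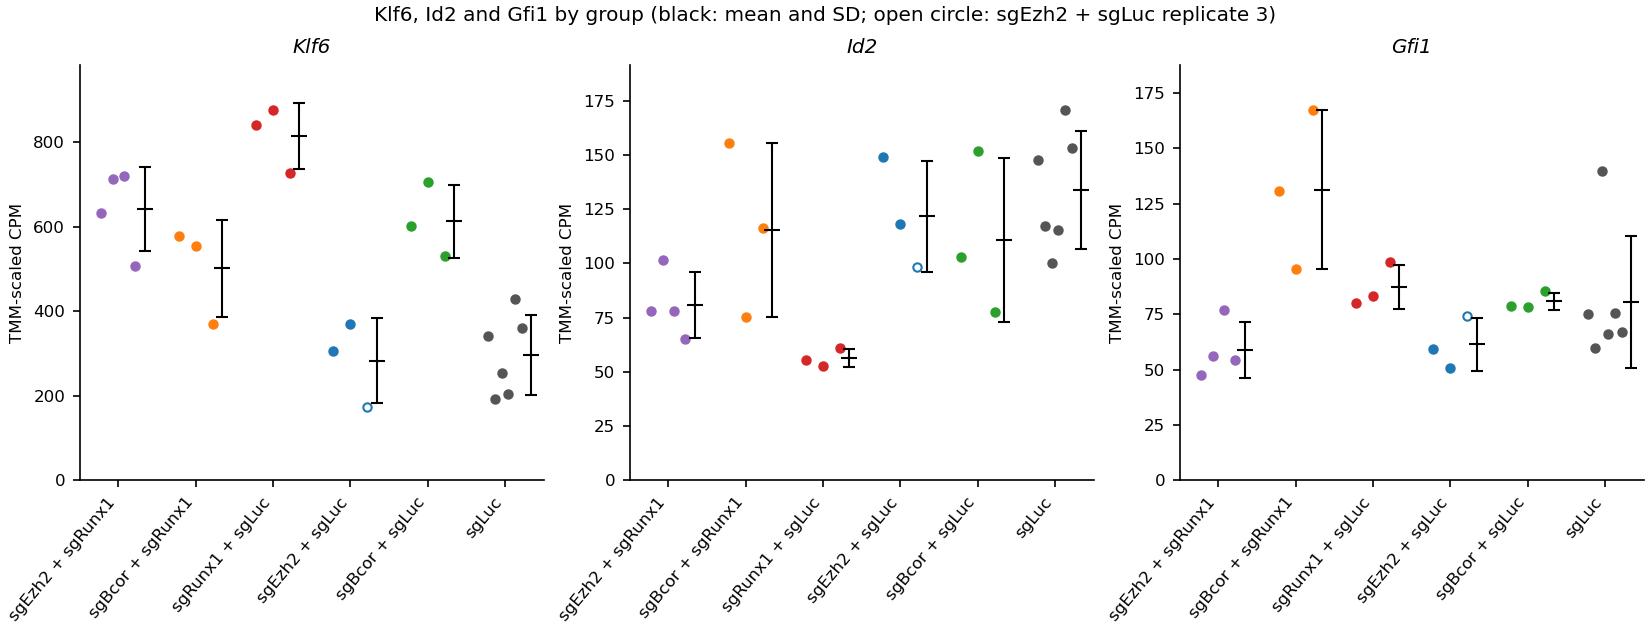
TMM-scaled CPM of Klf6, Id2 and Gfi1 (linear axes from 0) in the 6 groups. Each point is 1 mouse, the black mark and bar are the mean and SD, and the open circle is sgEzh2 + sgLuc replicate 3. Klf6 is highest and Id2 lowest in sgRunx1 + sgLuc, and Gfi1 is highest in sgBcor + sgRunx1.

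Among 10031 genes whose CPM averaged 4 or more, the 3 whose CPM ranked most like Klf6 over the 22 libraries were Hist1h2bg, a histone gene (Spearman rho 0.91), Zfand5, a zinc finger gene (0.90), and Fos, an AP-1 subunit (0.90); rho was 0.92, 0.89 and 0.88 without sgEzh2 + sgLuc replicate 3. A list of 10 immediate early genes (Fos, Fosb, Jun, Junb, Egr1, Ier2, Dusp1, Atf3, Nr4a1 and Zfp36), chosen after the data were seen, summed to between 10302 and 14468 CPM in sgEzh2 + sgRunx1, 7131 and 18292 in sgBcor + sgRunx1, 16558 and 18286 in sgRunx1 + sgLuc, 4245 and 8005 in sgEzh2 + sgLuc, 10027 and 12084 in sgBcor + sgLuc, and 886 and 11595 in sgLuc. The lowest sum, in sgLuc replicate 4, stood beside a Klf6 level of 204 CPM, and the highest, in sgBcor + sgRunx1 replicate 1, beside 578 CPM, below all 3 sgRunx1 + sgLuc libraries. With all 22 libraries none of the 10 passed the edgeR test in any comparison, where 0.187% to 26.2% of all genes did. Their median log2 fold change was 1.27 in sgRunx1 + sgLuc against sgLuc, where 8.12% of all genes passed. That fit held sgEzh2 + sgLuc replicate 3, and not passing does not show that their level was unchanged. These genes also respond to the handling of cells, and their part in the Klf6 result was not tested.

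**Figure D3:**
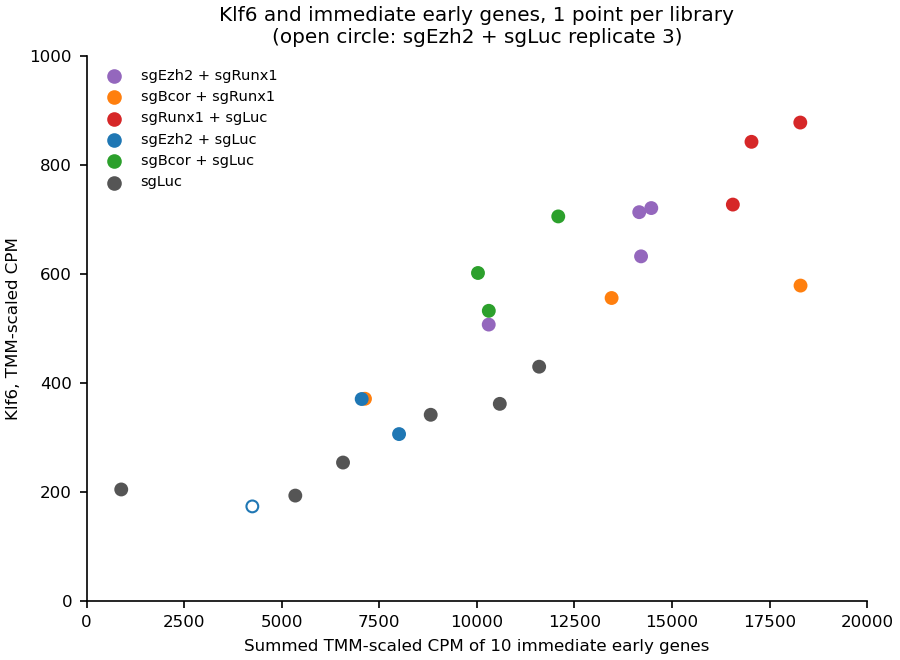
Klf6 (vertical axis, TMM-scaled CPM) against the summed CPM of 10 immediate early genes (horizontal axis), 1 point per library, coloured by group, open circle sgEzh2 + sgLuc replicate 3. The 3 sgRunx1 + sgLuc libraries lie at the top right with Klf6 at 727 to 877 CPM, and the sgLuc libraries lie low, with Klf6 at 193 to 430 CPM and sums spread between 886 and 11595 CPM.

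Klf4, which drives monocyte differentiation, differed most between the 2 doubles. Its level was 405, 387, 461 and 363 CPM in sgEzh2 + sgRunx1, against 208, 181 and 52.3 CPM in sgBcor + sgRunx1. All 4 libraries of sgEzh2 + sgRunx1 were above every library of the other 5 groups, of which the nearest were 361 CPM in sgBcor + sgLuc and 356 CPM in sgRunx1 + sgLuc. The log2 fold change between the doubles was 1.46 (SE 0.48, edgeR FDR 0.0734) and passed without sgEzh2 + sgLuc replicate 3 (1.46, SE 0.36, FDR 0.0106).

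At 52.3 to 208 CPM, Klf4 in sgBcor + sgRunx1 lay below all libraries of its singles, which had 325, 356 and 272 CPM in sgRunx1 + sgLuc and 334, 361 and 347 CPM in sgBcor + sgLuc. sgBcor + sgRunx1 against sgBcor + sgLuc was −1.24 (SE 0.50, edgeR FDR 0.113; FDR 0.0255 without sgEzh2 + sgLuc replicate 3), and against sgRunx1 + sgLuc −1.11 (SE 0.50, FDR 0.275; 0.0879 without it). The lowest, median and highest sgLuc values were 140, 267 and 324 CPM, and no edited group passed against sgLuc. The interaction of the Bcor and Runx1 guides was −1.61 (SE 0.65, FDR 0.176; 0.0458 without that library). In sgEzh2 + sgRunx1 against sgEzh2 + sgLuc, where Klf4 was at 171, 292 and 42.2 CPM in the single, it was 1.26 (SE 0.47, FDR 0.0882) and passed without sgEzh2 + sgLuc replicate 2 (1.92, FDR 0.0197) or sgBcor + sgRunx1 replicate 3 (1.27, FDR 0.0481).

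Id2 was lowest where Klf6 was highest. Its level was 55.3, 52.9 and 61.0 CPM in sgRunx1 + sgLuc, against 100, 132 and 171 CPM as the lowest, median and highest of sgLuc. The 3 libraries of sgRunx1 + sgLuc were the lowest of all 22, and the log2 fold change was −1.25 (SE 0.24, edgeR FDR 0.0037), which passed without any 1 library. In sgEzh2 + sgRunx1 Id2 was at 78.2, 101, 78.2 and 65.0 CPM, and fell by 0.73 on the log2 scale against sgLuc (SE 0.21, edgeR FDR 0.0322). Of these, 1 overlapped the sgLuc range, and the call was lost without sgEzh2 + sgRunx1 replicates 1, 3 or 4 (FDR 0.077, 0.0825 and 0.118) or sgLuc replicates 1, 5 or 6 (0.0591, 0.0712 and 0.0653).

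The Bcor guide went with a higher Id2 level on the Runx1 background. The libraries of sgBcor + sgRunx1 had 155, 75.1 and 116 CPM, all above those of sgRunx1 + sgLuc, with a log2 fold change of 1.03 (SE 0.27, edgeR FDR 0.06). It passed without sgEzh2 + sgLuc replicate 3 (1.03, FDR 0.029), sgBcor + sgLuc replicate 2 (1.02, FDR 0.0492) or sgBcor + sgRunx1 replicate 2 (1.23, FDR 0.0237). The interaction of the Bcor and Runx1 guides was 1.31 (SE 0.35, FDR 0.0469). It was kept in 6 of 22 omissions, and the FDR over the omissions ran up to 0.132, reached without sgBcor + sgLuc replicate 3. In sgEzh2 + sgLuc, at 149, 118 and 98.4 CPM, and in sgBcor + sgLuc, at 103, 152 and 77.6 CPM, Id2 overlapped sgLuc and did not pass (log2 fold changes −0.14 and −0.27).

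NK cells depend on Id2, and their transcripts were low in all 3 groups with the Runx1 guide. The 5 NK markers (Klrb1c, Ncr1, Klrd1, Gzma and Prf1) summed to between 1.69 and 11.1 CPM in sgEzh2 + sgRunx1, 2.05 and 14.2 in sgBcor + sgRunx1, 2.02 and 5.87 in sgRunx1 + sgLuc, 65.3 and 117 in sgEzh2 + sgLuc, 28.9 and 78.1 in sgBcor + sgLuc, and 12.5 and 48.7 in sgLuc. Of the 3 sums in sgBcor + sgRunx1, 2 lay within the sgRunx1 + sgLuc range, while Id2 was higher in all 3. The part of NK cells in the Id2 result was not tested.

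Spi1 was the member with the highest level per gene length in every group, at 549 ± 41.0 FPKM in sgEzh2 + sgRunx1 (n = 4), 702 ± 96.3 in sgBcor + sgRunx1, 546 ± 16.7 in sgRunx1 + sgLuc, 373 ± 287 in sgEzh2 + sgLuc, 507 ± 57.5 in sgBcor + sgLuc (n = 3 each) and 662 ± 85.2 in sgLuc (SD, n = 6). In CPM, the libraries of sgBcor + sgRunx1 had 555, 747 and 768, against 439, 517 and 372 in sgBcor + sgLuc and 484, 490 and 526.2 in sgRunx1 + sgLuc. The double lay above both singles without overlap. The log2 fold change over sgBcor + sgLuc was 0.64 (SE 0.51, edgeR FDR 0.451); without sgEzh2 + sgLuc replicate 3, where Spi1 was at 33.2 CPM and the shared estimate of spread was larger, it was 0.64 (SE 0.16, FDR 0.00986). sgEzh2 + sgRunx1, at 455, 548, 476 and 425 CPM, lay below all 3 libraries of sgBcor + sgRunx1 (−0.54, FDR 0.557, and −0.53, SE 0.15, FDR 0.0216 without that library).

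The interaction of the Bcor and Runx1 guides for Spi1 was 0.93 (SE 0.68, edgeR FDR 0.485), and 0.93 (SE 0.22, FDR 0.0147) without sgEzh2 + sgLuc replicate 3. Against sgLuc, with 469, 642 and 705 CPM as lowest, median and highest, no edited group passed in either fit (log2 fold changes −0.90 to 0.18 with all libraries). The 3 genes most like Spi1 in rank over the 22 libraries were Atg3, Flot2 and Capzb (rho 0.98, 0.96 and 0.94).

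Cebpa passed in none of the 13 tests with all libraries (edgeR smallest FDR 0.109; DESeq2 called it lower in sgEzh2 + sgLuc than in sgLuc, FDR 0.0489, and higher in sgEzh2 + sgRunx1 than in sgEzh2 + sgLuc, FDR 0.043). It was at 141, 279, 188 and 140 CPM in sgEzh2 + sgRunx1, 258, 153 and 93.0 in sgBcor + sgRunx1, 141, 136 and 141 in sgRunx1 + sgLuc, 92.3, 97.6 and 3.71 in sgEzh2 + sgLuc, 123, 132 and 109 in sgBcor + sgLuc, and 125, 170 and 206 CPM as lowest, median and highest in sgLuc. Each sgEzh2 + sgLuc library was below every sgLuc library, also without replicate 3 (log2 fold change −0.87, SE 0.30, FDR 0.204 without it).

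Cebpb, of the acute response, was low in both Polycomb singles. Its level was 170, 136 and 28.7 CPM in sgEzh2 + sgLuc and 165, 141 and 115 CPM in sgBcor + sgLuc, against 174, 284 and 470 CPM as lowest, median and highest in sgLuc. All 6 libraries of the singles lay below all 6 of sgLuc. The fold change in sgEzh2 + sgLuc was −1.46 (SE 0.43, edgeR FDR 0.0446), kept in 6 of 22 omissions and at −1.01 (FDR 0.228) without replicate 3 of that group; in sgBcor + sgLuc it was −1.13 (SE 0.43, FDR 0.152) and passed without that library (−1.13, SE 0.31, FDR 0.0316).

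In sgEzh2 + sgRunx1 Cebpb was at 351, 444, 312 and 202 CPM, all above sgEzh2 + sgLuc. The log2 fold change between them was 1.55 (SE 0.46, edgeR FDR 0.0316), 1 of 2 members to pass there beside Klf6 (12.6% of all genes did; without sgEzh2 + sgLuc replicate 3, 1 member and 9.36%). It was lost without sgEzh2 + sgLuc replicate 3 (1.10, FDR 0.075) and without sgEzh2 + sgRunx1 replicate 1, 2 or 3 (FDR 0.0595, 0.0874 and 0.0543). The libraries of sgBcor + sgRunx1 had 218, 357 and 238 CPM and those of sgRunx1 + sgLuc 214, 234 and 256 CPM, both within the sgLuc range.

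Cebpd, also of the acute response, was at 113, 138 and 108 CPM in sgBcor + sgLuc, against 136, 248 and 284 CPM as lowest, median and highest in sgLuc, with an overlap of 1 library on each side. It did not pass with all libraries (log2 fold change −0.93, SE 0.67, edgeR FDR 0.505) and passed without sgEzh2 + sgLuc replicate 3 (−0.93, SE 0.19, FDR 0.00672). In sgBcor + sgRunx1 it was at 169, 244 and 197 CPM, above all of sgBcor + sgLuc (0.76, edgeR FDR 0.556, and 0.0172 without that library). The interaction of the Bcor and Runx1 guides was 1.06 (FDR 0.606, and 0.0282 without it).

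**Figure D4:**
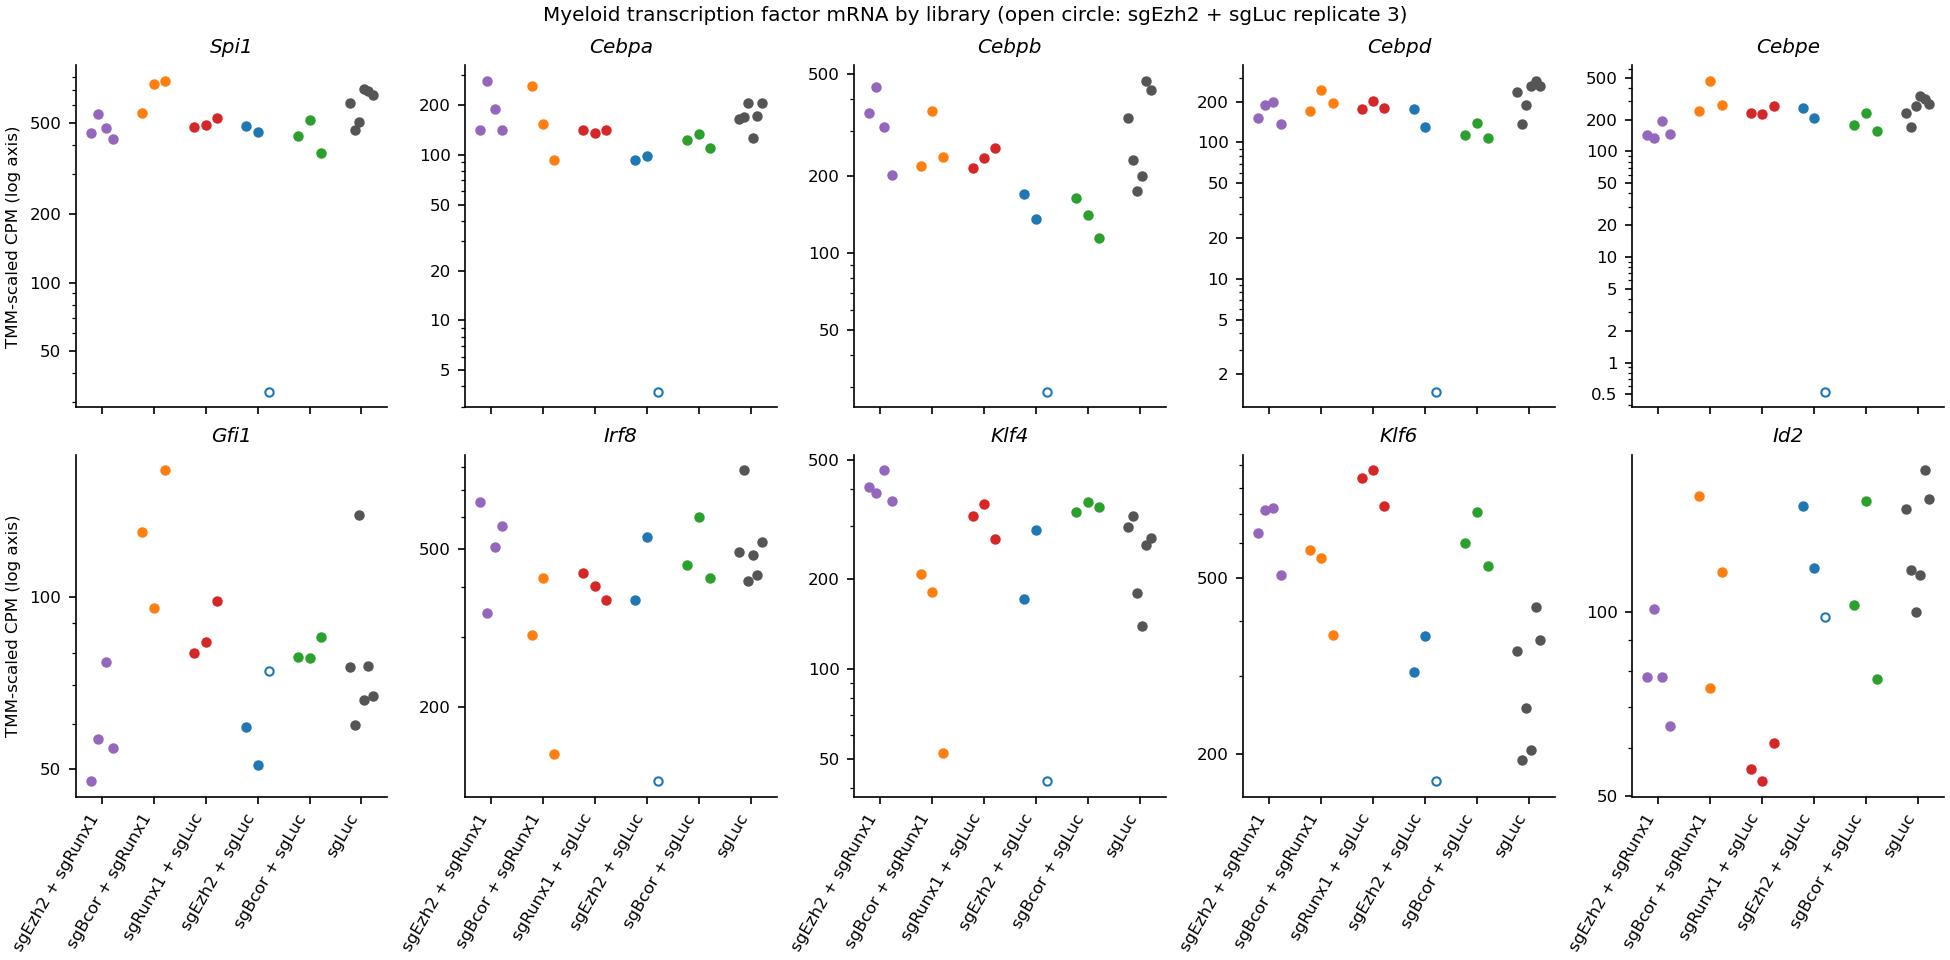
TMM-scaled CPM of each of the 10 genes (log axes, 1 panel per gene) by group, 1 point per mouse, with sgEzh2 + sgLuc replicate 3 as an open circle. That library is the lowest of all 22 in 8 of the 10 genes, and within the range of the others for Gfi1 and Id2.

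The library sgEzh2 + sgLuc replicate 3 had 28 Cebpe counts, or 0.528 CPM, against 135 to 465.8 CPM in the other 21 libraries, which is 435-fold below their median. It was 122-fold below the median for Cebpd, 38.0-fold for Cebpa, 15.2-fold for Spi1 and 8.01-fold for Cebpb. For Irf8, Klf4 and Klf6 it was 3.32-fold, 7.06-fold and 3.07-fold below, at 130, 42.2 and 173 CPM. Gfi1, at 74.3 CPM, and Id2, at 98.4 CPM, both of which lymphoid cells also use, were within 1.05-fold of the median of the others.

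Cebpe, of late neutrophil maturation, had its lowest group mean in sgEzh2 + sgRunx1, at 154 CPM, next to 156 CPM in sgEzh2 + sgLuc, whose libraries had 259, 209 and 0.528 CPM. Its level was 143, 135, 192 and 147 CPM in sgEzh2 + sgRunx1, against 240, 465.8 and 277 CPM in sgBcor + sgRunx1, 229, 225 and 269 CPM in sgRunx1 + sgLuc, and 169, 278 and 331 CPM as lowest, median and highest in sgLuc. sgEzh2 + sgRunx1 lay below all libraries of sgBcor + sgRunx1 and sgRunx1 + sgLuc, and overlapped sgLuc at 1 library on each side. With the library of 28 counts in the shared estimate of spread, no Cebpe difference passed with all libraries (edgeR FDR 0.474 against sgBcor + sgRunx1 and 0.546 against sgLuc). Without it, Cebpe fell by 1.09 on the log2 scale against sgBcor + sgRunx1 (SE 0.22, FDR 0.00272) and by 0.79 against sgLuc (SE 0.19, FDR 0.00771), and did not pass against sgRunx1 + sgLuc (−0.64, SE 0.22, FDR 0.113).

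Most late granule genes known in mouse to need C/EBPε differed in the same direction. In the edgeR fit without sgEzh2 + sgLuc replicate 3, 7 of 9 tested fell in sgEzh2 + sgRunx1 against sgBcor + sgRunx1 (15% of all genes passed in either direction; median log2 fold change −1.16, against 0.02 over all genes), among them Ngp (−1.30, SE 0.20, FDR 0.000337), Camp (−1.22, SE 0.22, FDR 0.000982) and Ltf (−1.15, SE 0.26, FDR 0.00477), which encode antimicrobial proteins of secondary granules. Against sgLuc, where 17.4% of all genes passed, 6 of 9 fell (Ngp −1.25, Itgb2l −0.99, Mmp8 −0.94, Camp −0.79, Cybb −0.70, Ltf −0.67), and Chil3 rose (1.53, SE 0.27, FDR 0.000567). Some of the 9 also fell in that fit where Cebpe did not pass. Against sgRunx1 + sgLuc these were Ngp (−0.88), Itgb2l (−0.85), Camp (−0.80) and Cybb (−0.63), beside 3.14% of all genes that passed. Against sgEzh2 + sgLuc, Ngp (−1.36), Camp (−1.13) and Itgb2l (−0.98) fell and Chil3 rose (1.32), beside 9.36%. With all 22 libraries none of the 9 passed in any comparison, by edgeR. The secondary granule marker sum was 45357 to 56910 CPM in sgEzh2 + sgRunx1, 88260 to 119049 in sgBcor + sgRunx1 and 46266 to 93980 in sgLuc.

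Cebpe was also higher in sgBcor + sgRunx1 than in sgBcor + sgLuc, which had 177, 230 and 157 CPM (0.80 on the log2 scale, SE 0.88, edgeR FDR 0.601, with SE 0.24 and FDR 0.0225 without sgEzh2 + sgLuc replicate 3). A list of 6 granule genes holds 5 of promyelocytes (Mpo, Elane, Prtn3, Ctsg and Ms4a3) and haptoglobin, Hp, which is not a primary granule protein. In that fit Mpo, Elane, Prtn3, Ctsg and Hp rose, beside 21.1% of all genes that passed (median of the 6 1.07, against −0.04 over all genes), with Ctsg at 1.70 (SE 0.34, FDR 0.00205), Mpo at 1.22 (SE 0.31, FDR 0.0101) and Prtn3 at 1.06 (SE 0.35, FDR 0.0398). Against sgLuc, 4 of the 6 rose in sgBcor + sgRunx1 (Ctsg, Mpo, Prtn3 and Elane; 22.7% of all genes passed). With all libraries none of the 6 passed.

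Gfi1 was highest in the Bcor double. Its level was 47.5, 56.2, 77.1 and 54.3 CPM in sgEzh2 + sgRunx1, against 131, 95.6 and 167 CPM in sgBcor + sgRunx1, and the groups did not overlap. sgEzh2 + sgRunx1 over sgBcor + sgRunx1 was −1.16 (SE 0.25, edgeR FDR 0.00834), the single member of the 10 to pass there (7.05% of all genes did; without sgEzh2 + sgLuc replicate 3, 4 members and 15% of all genes). It was lost only without sgBcor + sgRunx1 replicate 3 (−0.97, FDR 0.0579).

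The singles had 80.0, 83.3 and 98.5 CPM in sgRunx1 + sgLuc, 59.2, 50.8 and 74.3 in sgEzh2 + sgLuc and 78.7, 78.3 and 85.3 in sgBcor + sgLuc. The lowest, median and highest of sgLuc were 59.7, 71.2 and 140 CPM, and the highest of these, replicate 3, overlapped the sgBcor + sgRunx1 range. sgBcor + sgRunx1 against sgLuc was 0.70 (SE 0.22, edgeR FDR 0.0413). That call was lost without sgBcor + sgRunx1 replicate 1 or 3 (FDR 0.0896 and 0.218) and without sgLuc replicate 1, 2, 4, 5 or 6 (FDR 0.0663 to 0.0769). Against sgBcor + sgLuc the Bcor double was 0.70 higher with no overlap (SE 0.27, FDR 0.0924), which passed without sgLuc replicate 3 (0.69, FDR 0.0228).

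Irf8, which sets monocyte and dendritic fate, had its lowest group mean in the Bcor double. Its level was 303, 421 and 152 CPM in sgBcor + sgRunx1, against 414, 486 and 786 CPM as lowest, median and highest in sgLuc. One library of the double overlapped sgLuc. The log2 fold change was −0.83 (SE 0.35, edgeR FDR 0.122), and passed without sgEzh2 + sgLuc replicate 3 (−0.83, SE 0.27, FDR 0.0332). The other groups had 655, 345, 506 and 570 CPM in sgEzh2 + sgRunx1, 433, 402 and 371 in sgRunx1 + sgLuc, 371, 535 and 130 in sgEzh2 + sgLuc, and 455, 601 and 422 in sgBcor + sgLuc, and no other comparison passed in either fit.

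The genes known to depend on Irf8 in monocytes and dendritic cells, a list of 11 that also holds Klf4, had 4 lower and 0 higher in sgBcor + sgRunx1 against sgLuc, where 14.4% of all genes passed (median log2 fold change −1.84, against −0.02 over all genes). They were Ciita, the class II transactivator (−4.12, SE 0.56, edgeR FDR 0.000189), Cx3cr1, a monocyte chemokine receptor (−3.98, SE 0.72, FDR 0.00123), and Clec9a and Batf3 of cross-presenting dendritic cells. In sgEzh2 + sgRunx1 Cx3cr1 (−2.29) and Ciita (−1.70) fell, in sgRunx1 + sgLuc Cx3cr1 fell (−2.23), and none passed in sgEzh2 + sgLuc or sgBcor + sgLuc. Of all genes, 10.1%, 8.12%, 8.25% and 3.16% passed in these comparisons, in that order. When sgEzh2 + sgLuc replicate 3 was left out, 3 of the list fell in sgEzh2 + sgRunx1, 6 in sgBcor + sgRunx1, 3 in sgRunx1 + sgLuc and 0 in sgEzh2 + sgLuc. In sgBcor + sgLuc 1 fell, Ccr2 (−0.96, SE 0.25, edgeR FDR 0.0269). Of all genes, 17.4%, 22.7%, 14.6%, 1.05% and 8.17% passed in that fit, in the same order and in either direction. The 8 dendritic cell markers summed to 50.1 to 155 CPM in sgBcor + sgRunx1 and to 145 to 506 CPM in sgLuc, and B cells, which also express Ciita and Irf8, had marker sums of 20.2 to 47.7 CPM and 259 to 763 CPM in the same groups. The parts of these cells in the Irf8 level were not tested.

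Between the doubles and the singles, none of the 10 members passed with all libraries in sgEzh2 + sgRunx1 against sgRunx1 + sgLuc (0.187% of all genes), in sgBcor + sgRunx1 against sgRunx1 + sgLuc (1.24%) or in sgBcor + sgRunx1 against sgBcor + sgLuc (12.2%). At an unadjusted edgeR p under 0.05 there were 1, 4 and 2 members, beside 2190, 2841 and 4766 of all 17659 genes. DESeq2 called 0, 1 (Id2) and 0 members, beside 419, 858 and 3046 genes. Without sgEzh2 + sgLuc replicate 3 the members that passed by edgeR FDR were 0 (3.14% of all genes), 1 (5.02%) and 4 (21.1%). A test for any difference among the 5 edited groups, which all lack Ddx3y counts, passed for Klf6 (edgeR FDR 0.00865), Gfi1 (0.0092) and Id2 (0.0164), 3 of 10 members beside 26.2% of all genes. Id2 was lost there without sgRunx1 + sgLuc replicate 1 or 2 (FDR 0.0508 and 0.0558). Without sgEzh2 + sgLuc replicate 3, 7 members passed beside 31.8% of all genes, with Spi1 (FDR 0.0237), Klf4 (0.0347), Cebpe (0.0088) and Cebpb (0.0322) as the others.

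Among 30 other myeloid regulators, with all libraries and against sgLuc, 2 passed in sgEzh2 + sgRunx1 (Irf4 and Relb, lower; 10.1% of all genes passed), 4 in sgBcor + sgRunx1 (Irf4, Id3, Relb and Batf3, lower; 14.4%) and 2 in sgRunx1 + sgLuc (Ets2 higher and Irf4 lower; 8.12%), shares of the list near those of all genes. Irf4, of plasma cells and dendritic cells, fell by 2.98 (SE 0.53, edgeR FDR 0.00122) in sgEzh2 + sgRunx1, fell by 5.23 (SE 0.69, FDR 0.000168) in sgBcor + sgRunx1 and fell by 3.23 (SE 0.60, FDR 0.00327) in sgRunx1 + sgLuc on the log2 scale. With all libraries Nab2 rose in sgEzh2 + sgLuc and none passed in sgBcor + sgLuc. With sgEzh2 + sgLuc replicate 3 left out, 6 passed in sgEzh2 + sgRunx1, 7 in sgBcor + sgRunx1, 7 in sgRunx1 + sgLuc, 0 in sgEzh2 + sgLuc and 2 in sgBcor + sgLuc (17.4%, 22.7%, 14.6%, 1.05% and 8.17% of all genes). Etv6, an ETS repressor of blood stem cells, rose in that fit by 0.58 (edgeR FDR 0.000275), 0.42 (FDR 0.00591), 0.66 (FDR 0.000327) and 0.44 (FDR 0.0129) on the log2 scale in sgEzh2 + sgRunx1, sgBcor + sgRunx1, sgRunx1 + sgLuc and sgBcor + sgLuc. Tfec, of the MiT family, rose there by 0.79 (edgeR FDR 0.0022) in sgEzh2 + sgRunx1 and 0.77 (FDR 0.00637) in sgRunx1 + sgLuc. It fell by 0.87 (FDR 0.00861) in sgBcor + sgLuc. With all libraries the median log2 fold change of the list was 0.12, −0.13, 0.03, −0.39 and −0.13 in sgEzh2 + sgRunx1, sgBcor + sgRunx1, sgRunx1 + sgLuc, sgEzh2 + sgLuc and sgBcor + sgLuc. Of 19 lymphoid regulators, 7 fell in sgEzh2 + sgRunx1, 9 in sgBcor + sgRunx1 and 7 in sgRunx1 + sgLuc, while 6 rose in sgEzh2 + sgLuc and 0 passed in sgBcor + sgLuc (10.1%, 14.4%, 8.12%, 8.25% and 3.16% of all genes passed). In the fit without sgEzh2 + sgLuc replicate 3, 0 passed in sgEzh2 + sgLuc, and 10 fell in sgEzh2 + sgRunx1, 12 in sgBcor + sgRunx1, where 1 rose, and 10 in sgRunx1 + sgLuc. The medians with all libraries were −2.13, −2.89, −1.94, 1.48 and 0.99.

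Of 16 myeloid receptors and adhesion genes, Cd14, the lipopolysaccharide co-receptor of monocytes and neutrophils, rose against sgLuc in all 3 groups with the Runx1 guide, with all libraries: by 3.49 (SE 0.56, edgeR FDR 0.000603) in sgEzh2 + sgRunx1, 3.16 (SE 0.58, FDR 0.00135) in sgBcor + sgRunx1 and 3.21 (SE 0.58, FDR 0.00254) in sgRunx1 + sgLuc on the log2 scale. Itgax, the dendritic integrin CD11c, fell in sgBcor + sgRunx1 (−2.46, SE 0.46, FDR 0.00158) and sgRunx1 + sgLuc (−1.52, SE 0.43, FDR 0.0363). With all libraries none of the 16 passed in sgEzh2 + sgLuc or sgBcor + sgLuc against sgLuc, where 8.25% and 3.16% of all genes did. In the 3 groups with the Runx1 guide, in the order given for Cd14, 10.1%, 14.4% and 8.12% of all genes passed. In the fit without sgEzh2 + sgLuc replicate 3, Cd14 also rose in sgBcor + sgLuc (1.77, SE 0.23, edgeR FDR 0.000166), where Sirpa and Fcgr3 fell (−0.58 and −0.50), Tlr4 rose in all 3 groups with the Runx1 guide, Fcgr1 and Il6ra rose in sgEzh2 + sgRunx1, and none passed in sgEzh2 + sgLuc. Of all genes, 17.4%, 22.7%, 14.6%, 1.05% and 8.17% passed in that fit in sgEzh2 + sgRunx1, sgBcor + sgRunx1, sgRunx1 + sgLuc, sgEzh2 + sgLuc and sgBcor + sgLuc. The genes for the receptors of G-CSF, M-CSF and GM-CSF were on the list and did not pass against sgLuc with all libraries.

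By rank over the 22 libraries, the genes most like the other members were Akr1a1 for Cebpa (rho 0.82), Id1 for Cebpb (0.91), Map2k3 for Cebpd (0.92), Lin28a for Cebpe (0.96), Tprn for Gfi1 (0.91), Arhgap17 for Irf8 (0.86), Iqsec2 for Klf4 (0.86) and Pqlc3 for Id2 (0.81). The libraries share groups, so these values describe the 22 libraries only. Per gene length in sgLuc, the order of mean levels was Spi1 at 662 FPKM, Irf8 at 326, Cebpe at 209, Cebpb at 198, Cebpd at 187, Klf4 at 164, Id2 at 103, Cebpa at 71.1, Klf6 at 68.4 and Gfi1 at 38.4. In sgRunx1 + sgLuc Klf6 stood at 190 ± 20.98 FPKM and Id2 at 43.5 ± 2.58 FPKM (SD, n = 3). Neighbours between Cebpe and Klf4 differed by less than their SD of 38.3 to 73.2 FPKM in sgLuc.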

How the data were processed

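Whole bone marrow mRNA of 22 mice in 6 groups was analysed, 1 library each, grouped by the sample titles. The tools fastp, HISAT2 and HTSeq and the build mm9 are named per the submitters' processing notes, without versions, options or the use of strand. The authors deposited read counts for 47069 genes without normalization. The authors also deposited FPKM, which for each of 14383 genes counted in all 22 libraries were proportional to the count over the library total (relative tolerance 1e-06). Counts carry the tests, and FPKM only compare levels between genes. Replicate numbers in titles and descriptions differed for 4 libraries, and the title's were used.

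Counts were fitted with edgeR 4.0.16 in R 4.3.3 (quasi-likelihood, robust, 6 group means, 16 residual degrees of freedom). filterByExpr with a minimum count of 10 kept 17659 genes, scaled by TMM. The 10 pairwise contrasts, both interactions and a test over the 5 edited groups gave 13 comparisons; FDR is the Benjamini-Hochberg adjusted p over all genes tested, with a threshold of 0.05. SE is the log2 fold change over the square root of F. The fit was checked on simulated counts. Alternatives were DESeq2 1.42.0, its size factors, no filter, a replicate block, only the groups compared and each library left out. The members and lists were chosen with earlier results of these data known, and the immediate early list after the files were seen. Genes named beside the 10 members are those of the lists that passed, and the 3 with the highest Spearman rho to a member's CPM. Depth was 30023722 to 57175449 counts per library. Gene IDs matched GENCODE M21 for 98.8%; promoters are RefSeq's, in GRCm38.p6.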

Additional observations from a re-analysis of the deposited data

Results flagged for a closer look

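In sgLuc replicate 3, Gfi1 was at 139.905 CPM, while the nearest of the other 5 sgLuc libraries was at 75.6 CPM; that gap was 0.802 of the group's range, above the limit of 0.625 for 6 samples. In sgLuc replicate 2, Irf8 was at 785.999 CPM, with the nearest at 520 CPM and a gap of 0.715 of the range. These were 2 of 20 sets examined for a library far from the rest, and chance gives about 1 in 20. Each set held the values of a member in a group of 4 or 6 libraries, and sets of a group share libraries. The groups of 3 libraries, among them sgEzh2 + sgLuc, were not examined in this way.

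Among the 10 members, the effect of the Runx1 guide differed with the Bcor guide for 2, by the interaction term in edgeR. With all libraries, 3.22% of all genes passed there. For Klf6 the interaction was -1.745 on the log2 scale (FDR 0.0231), and for Id2 it was 1.31 (FDR 0.0469). Both lost the call without single libraries, and both hold sgLuc, whose libraries alone carry Ddx3y counts. In the fit without sgEzh2 + sgLuc replicate 3, Spi1, Cebpd and Klf4 also passed, beside 9.14% of all genes.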

How the results depend on the processing

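No member that passed under any setting reversed in direction under the alternatives run. After a number of members, parentheses hold all genes called under the same setting. DESeq2 and the block tested 17659 genes. Of the 10 members, DESeq2 called 2 (2225) in sgEzh2 + sgLuc against sgLuc and 4 (2938) in sgEzh2 + sgRunx1 against sgEzh2 + sgLuc. It called 1 (858) in sgBcor + sgRunx1 against sgRunx1 + sgLuc and 2 (2083) between the doubles. For the Ezh2 and Runx1 interaction it called 1 (607), and over the edited groups 5 (6355). Without the filter, 0 (1043) passed in sgEzh2 + sgLuc and 0 (1982) in sgBcor + sgRunx1, each against sgLuc. There were 1 (1855) in sgEzh2 + sgRunx1 against sgEzh2 + sgLuc and 1 (252) in the Bcor and Runx1 interaction. With only the groups compared, 4 (3180) passed in sgEzh2 + sgRunx1 and 0 (2634) in sgBcor + sgRunx1, each against sgLuc. In sgEzh2 + sgLuc 0 (99) passed and in sgBcor + sgLuc 2 (1155), also against sgLuc. For sgEzh2 + sgRunx1 there were 2 (1592) against sgRunx1 + sgLuc and 0 (588) against sgEzh2 + sgLuc. Between the doubles 2 (1284) passed, and in the Bcor and Runx1 interaction 4 (1063). RLE size factors left every count of members as it was. The cause of these differences was not tested.

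Of 46 pairs of libraries with the same number in their titles, none had a correlation of deviations from group means over 0.1 (from -0.135 to 0.0965). The labels state no pairing. Low correlations cannot decide whether such mice shared a culture or batch. With the replicate block, 1 member (877 genes) passed in sgEzh2 + sgRunx1 and 0 (153) in sgEzh2 + sgLuc, each against sgLuc. The block gave 1 (1438) in sgBcor + sgRunx1 against sgBcor + sgLuc and 2 (777) between the doubles. For the Bcor and Runx1 interaction it gave 1 (76), and over the edited groups 5 (3069).

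Over the omissions of single libraries, the lowest and highest numbers of members called against sgLuc were 1 and 3 in sgEzh2 + sgRunx1, 0 and 3 in sgBcor + sgRunx1, 2 and 2 in sgRunx1 + sgLuc, 0 and 1 in sgEzh2 + sgLuc, and 0 and 3 in sgBcor + sgLuc. They were 1 and 3 in sgEzh2 + sgRunx1 over sgEzh2 + sgLuc, 0 and 1 in sgBcor + sgRunx1 over sgRunx1 + sgLuc, 0 and 4 over sgBcor + sgLuc, 0 and 4 between the doubles, 0 and 5 in the Bcor and Runx1 interaction, and 2 and 7 over the edited groups. The high ends of 4, 5 and 7 members came without sgEzh2 + sgLuc replicate 3. All genes called against sgLuc ran, in the order above, from 1176 to 3163, 1427 to 4133, 515 to 2647, 191 to 2624 and 120 to 1484. For the other comparisons, in the order above, they ran from 1383 to 2623, 18 to 913, 1093 to 3827, 462 to 2726, 89 to 1660 and 3914 to 5770.

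The number of all genes called moved by over 1.5 times in several settings. With DESeq2 it was 2271 against 1434 in sgRunx1 + sgLuc over sgLuc, 2225 against 1456 in sgEzh2 + sgLuc, 1277 against 558 in sgBcor + sgLuc, 419 against 33 in sgEzh2 + sgRunx1 over sgRunx1 + sgLuc, 858 against 219 in sgBcor + sgRunx1 over sgRunx1 + sgLuc, 2083 against 1245 between the doubles, 607 against 93 in the Ezh2 and 1361 in the Bcor interaction. The block gave fewer calls in all 13 comparisons: 877 in sgEzh2 + sgRunx1, 1463 (against 2547) in sgBcor + sgRunx1, 535 in sgRunx1 + sgLuc, 153 in sgEzh2 + sgLuc and 148 in sgBcor + sgLuc over sgLuc, 16 and 98 for the doubles over sgRunx1 + sgLuc, 1459 over sgEzh2 + sgLuc, 1438 over sgBcor + sgLuc, 777 between the doubles, 12 and 76 in the Ezh2 and Bcor interactions and 3069 (against 4630) over the edited groups. With only the groups compared, it was 3180 against 1787 in sgEzh2 + sgRunx1, 2991 in sgRunx1 + sgLuc, 99 in sgEzh2 + sgLuc and 1155 in sgBcor + sgLuc, each over sgLuc, 1592 and 6 for the doubles over sgRunx1 + sgLuc, 588 against 2228 over sgEzh2 + sgLuc, 854 against 2161 over sgBcor + sgLuc, 1063 in the Bcor interaction and 2984 over the edited groups. Without the filter it was 96 in sgBcor + sgRunx1 over sgRunx1 + sgLuc, 45 in the Ezh2 and 252 in the Bcor interaction. Without sgEzh2 + sgLuc replicate 3, 191 genes passed in sgEzh2 + sgLuc against sgLuc, of which 165 were among the 1456.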
